A study of Capra hircus with 6 samples.

Results

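The genes described here encode the amino acid transporters of the solute carrier (SLC) families SLC1, SLC3, SLC6, SLC7, SLC36, SLC38, and SLC43. They were chosen by name, as genes whose identifier or annotated symbol gives a numbered member of these families, with another SLC7 gene left out. This gave 52 of the 15944 genes listed, of which 44 stood under an SLC symbol and 8 under a LOC number. RNA-seq was performed on primary cultures of secondary hair follicle dermal papilla cells (SHF-DPCs), the specialized fibroblasts at the base of the follicles that make cashmere. The cells came from the skin of wild-type Albas cashmere goats that were 3 years old, and were used at passages 4 to 7 in medium with 10% fetal bovine serum. The control group (3 libraries) received no all-trans retinoic acid (ATRA), a derivative of vitamin A that acts through nuclear receptors, and the ATRA-treated group (3 libraries) received it at 100 µM for 24 h. The cells for RNA-seq came from 3 animals, and the labels do not say which library came from which animal, so p-values measure the spread between these libraries.

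Most amino acids enter cells through carriers in the plasma membrane, and different families take different amino acids and use different driving forces. SLC1 and SLC38 carriers use the sodium gradient, most SLC36 carriers use protons, and the SLC7 light chains work as exchangers that need an SLC3 heavy chain to reach the membrane. Several carriers also sit in the lysosome, where they pass on the amino acid supply to the growth-controlling kinase complex mTORC1.

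Total counts were 36887160 to 38012771 per control library and 35532339 to 36870939 per ATRA library. Values below are normalized CPM, read counts brought to a common library size and corrected by TMM, with factors of 0.842 to 0.851 for control and 1.17 to 1.20 for ATRA libraries, and 1 count was worth 0.0227 to 0.0322 CPM. No pair of libraries of a group agreed within sampling noise, and ATRA replicate 2 stood apart from the other ATRA libraries (chi-square per degree of freedom 17.3 and 18.4, against 5.01 between those). Of 20 markers of dermal papilla and dermal mesenchyme, 15 of the 16 tested fell and 0 rose, and their summed level was 94510 to 96210 CPM in control libraries and 4933 to 5256 CPM in ATRA libraries, with ALPL, CORIN, and PROM1 at 3 counts or fewer in every library or without a row. The summed markers of leukocytes were 9.24 to 12.9 CPM in control libraries and 41.3 to 44.2 CPM in ATRA libraries, led by CD14, with PTPRC and LYZ at 3 counts or fewer or without a row. Those of endothelial cells were 0.903 to 1.24 CPM and 6.19 to 9.16 CPM, led by PECAM1, with CLDN5 and CDH5 at 3 counts or fewer or without a row. Those of keratinocytes were 3.11 to 4.98 CPM and 5.37 to 5.97 CPM, led by KRT10, with KRT15, KRT1, CDH1, and TP63 at 3 counts or fewer or without a row. The summed markers of melanocytes were 16.1 to 17.6 CPM in control libraries and 32.2 to 39.0 CPM in ATRA libraries, led by MITF, which rose while the other marker tested fell, with TYR, DCT, MLANA, and SOX10 at 3 counts or fewer or without a row. Those of adipocytes were 17.2 to 20.7 CPM and 3.36 to 3.96 CPM, where CIDEC, the leading marker, fell and the 2 other markers tested rose. In bulk samples, fewer cells of a type and less RNA per cell cannot be told apart, and the part of these markers in the results below was not tested.

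Of the 52 transporter genes, 34 had enough counts to be tested by edgeR's quasi-likelihood test, and "rose" and "fell" below mean an adjusted p under 0.05 over all 12588 genes tested. Of these 34, 16 rose with ATRA, 14 fell, and 4 did not pass. Among all genes tested, 40.9% rose and 38.7% fell. At an absolute log2 fold change (log2FC) above 1 and an unadjusted p under 0.05, 6 transporter genes were higher and 7 lower, where 13.7% of all genes were higher and 17.3% lower. The ATRA libraries lay wholly above the control libraries for 15 transporter genes and wholly below for 14, where 80.1% of all genes had groups that did not overlap. These shares lie near those of all genes, and the median log2FC was 0.22 for the 34 and 0.04 for all genes. The median of the transporters was 0.41 without control replicate 1 and 0.12 without control replicate 2. The range of the 34 was wide, from -3.75 for SLC38A11 to 5.79 for SLC38A3. SLC38A8 and SLC6A20 passed the filter on low counts only through their ATRA libraries and so had to differ.

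Scaling by library size only in place of TMM moves the median log2FC of all genes from 0.04 to 0.52. The 16 genes that rose stay higher under it. Of the 14 that fell, SLC38A10 and SLC7A5 pass as higher (log2FC 0.31 and 0.32), SLC38A6, SLC43A1, and SLC43A3 change sign without passing (log2FC 0.05, 0.03, and 0.01, adjusted p = 0.543, 0.774, and 0.896), and SLC1A5 keeps its sign without passing (log2FC -0.06, adjusted p = 0.262). All genes past the thresholds split into 1730 higher and 2174 lower with TMM, and into 3390 and 1471 with library size only. The transporter genes past them were 6 higher and 7 lower with TMM, 13 and 5 with library size only, and 12 and 8 without the filter on low counts. The decreases of SLC38A10, SLC7A5, SLC38A6, SLC43A1, SLC43A3, and SLC1A5 are therefore relative to the TMM scale.

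**Figure D1:**
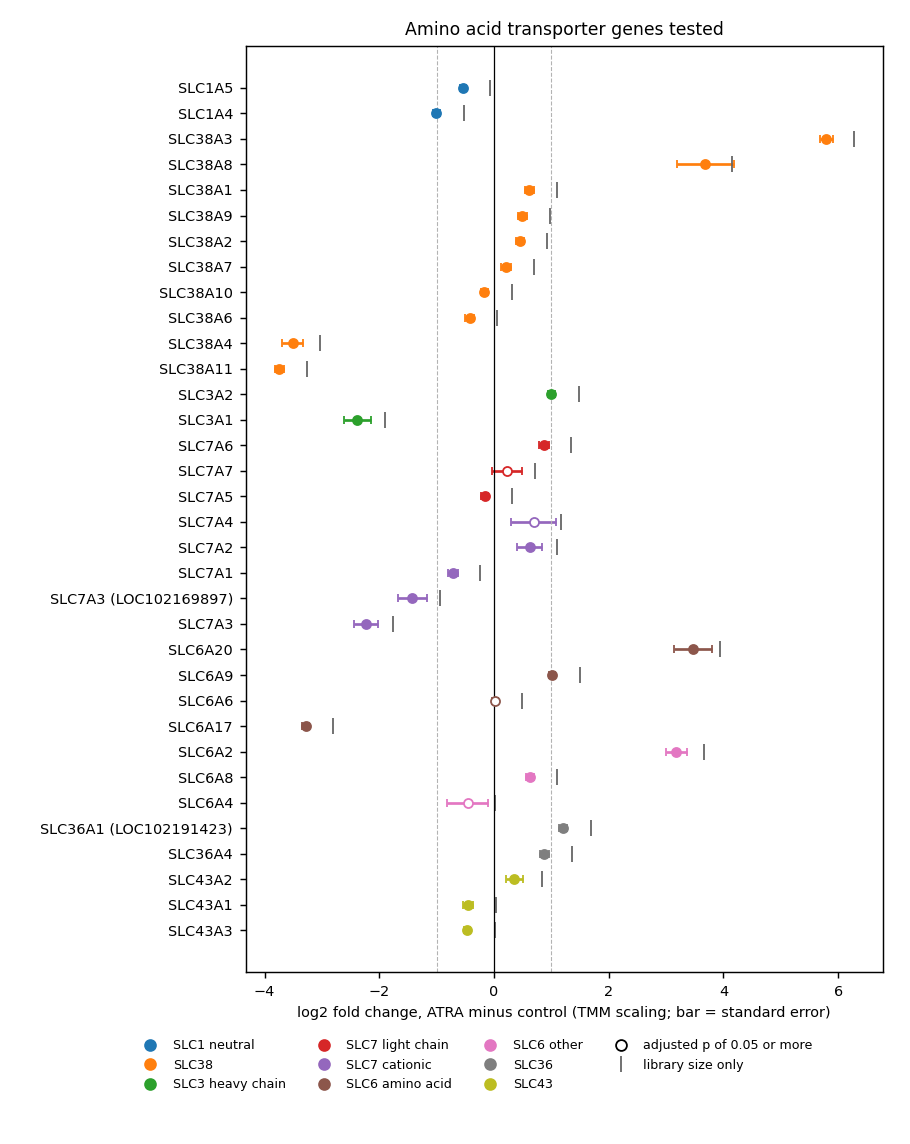
The log2 fold change (ATRA minus control, TMM scaling) of the 34 transporter genes tested, grouped by role, with bars for the standard error. Open circles mark the 4 genes that did not pass, grey ticks the value with library size only, which puts 5 of the genes that fell and SLC6A4, an open circle, on the other side of 0, and dashed lines a log2FC of 1 and -1. SLC38A3 at 5.79 and SLC38A11 at -3.75 are the ends of the range and belong to 1 family.

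The SLC38 family holds sodium-coupled carriers of small neutral amino acids such as glutamine, alanine, and serine. Of its 11 members, 10 were tested, 6 rose, and 4 fell. SLC38A3, the glutamine, histidine, and asparagine carrier known from liver and kidney, had 1.06, 0.804, and 1.03 CPM in the control libraries and 55.5, 53.4, and 52.1 CPM in the ATRA libraries. It went from 26 to 33 counts per library to 2155 to 2397 counts. The increase was 55.5-fold (log2FC 5.79, standard error 0.114, adjusted p = 1.37e-18), the largest among the 34 transporter genes.

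SLC38A2, a carrier that cells are known to induce when amino acids are short, rose by a small factor from a high read count. It had 744, 808, and 801 CPM in the control libraries and 997, 1190, and 1029 CPM in the ATRA libraries. The groups did not overlap, ATRA replicate 2 was the highest library, and the change was 1.37-fold (log2FC 0.45, standard error 0.0682, adjusted p = 8.24e-06). SLC38A1, its close relative, rose 1.53-fold from 60.0 ± 2.76 to 91.7 ± 10.8 CPM (SD, n = 3 libraries per group; edgeR adjusted p = 7.89e-07). SLC38A9, the lysosomal carrier that reports arginine to mTORC1, rose 1.41-fold from 29.8 ± 0.692 to 41.9 ± 3.55 CPM (SD, n = 3; edgeR adjusted p = 1.06e-05). SLC38A7, which exports glutamine from the lysosome, was higher 1.16-fold (log2FC 0.21, edgeR adjusted p = 0.0311). Its call was lost without control replicate 2 (log2FC 0.12, adjusted p = 0.199), without control replicate 3 (adjusted p = 0.0551), without ATRA replicate 1 (adjusted p = 0.0752), and without ATRA replicate 3 (adjusted p = 0.0945), and also with DESeq2 (adjusted p = 0.0569) and R's t.test function (adjusted p = 0.178).

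SLC38A8 had 1, 1, and 4 counts in the control libraries and 39, 35, and 35 counts in the ATRA libraries. Its log2FC was 3.68 with a wide standard error of 0.496 (edgeR adjusted p = 1.97e-06), since the control value rests on few reads, and without control replicate 3 it was 4.60. It overlaps NECAB2 in the ARS1.2 annotation. NECAB2 itself rose 1.52-fold, and whether the counting used strand is not given in the sources used here.

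SLC38A11 and SLC38A4 had the largest decreases of the 34. SLC38A11, a little-studied member of the family, had 82.3, 89.4, and 84.1 CPM in the control libraries and 6.71, 6.08, and 6.26 CPM in the ATRA libraries, a 13.4-fold decrease (log2FC -3.75, standard error 0.0791, edgeR adjusted p = 3.61e-18). SLC38A4, which carries neutral and also cationic amino acids, had 7.15, 8.22, and 6.79 CPM in the control libraries and 0.671, 0.703, and 0.556 CPM in the ATRA libraries, an 11.4-fold decrease (log2FC -3.51, standard error 0.185, edgeR adjusted p = 3.10e-12). Every ATRA library lay far below every control library for both genes. In ARS1.2, SLC38A1 and SLC38A2 are neighbours and SLC38A4 lies a few genes away, so that genes close to each other on the chromosome moved in opposite directions.

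SLC38A10 and SLC38A6 fell slightly on the TMM scale. With library size only SLC38A10 passed as higher and SLC38A6 did not pass in either direction. SLC38A10 had 200.7, 195, and 192 CPM in the control libraries and 172, 168, and 184 CPM in the ATRA libraries (log2FC -0.17, standard error 0.0555, edgeR adjusted p = 0.0105), and it did not pass with upper-quartile scaling (log2FC -0.09, adjusted p = 0.136). SLC38A6 had 24.8 ± 0.549 CPM in the control group and 18.5 ± 1.21 CPM with ATRA (SD, n = 3; edgeR adjusted p = 9.66e-05). It overlaps TRMT5, which also fell (log2FC -0.32). SLC38A5 was not tested, with at most 5 counts in a library.

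The SLC1 family holds carriers of acidic amino acids and the exchangers of neutral ones. Both exchangers fell. SLC1A5, the exchanger through which proliferating cells take up glutamine, had 682, 650, and 652 CPM in the control libraries and 462, 433, and 468 CPM in the ATRA libraries. The groups did not overlap, and the decrease was 1.46-fold with TMM (log2FC -0.54, standard error 0.0569, edgeR adjusted p = 7.49e-08), while library size only left -0.06. SLC1A4, its relative for alanine, serine, and cysteine, had 158, 166, and 165 CPM in the control libraries and 75.9, 85.5, and 82.4 CPM in the ATRA libraries. This decrease was 2.01-fold (log2FC -1.006, standard error 0.0599, edgeR adjusted p = 2.02e-11), just past the fold threshold, and it lay between -1.05 and -0.96 when each library was left out in turn.

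SLC1A4 reads per 100 reads of SLC1A5 were 23.2, 25.5, and 25.4 in the control libraries and 16.4, 19.7, and 17.6 in the ATRA libraries. This ratio does not depend on the scaling, and its groups did not overlap, so SLC1A4 was lower relative to SLC1A5 with ATRA. It does not show whether SLC1A5 itself fell. Such ratios are descriptions of these libraries, since an exact permutation test of 3 libraries against 3 cannot go below p = 0.1. They compare groups and not the levels of both genes, because the values are not per transcript length.

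The 4 carriers of acidic amino acids in this family were below the filter, with at most 22 counts in a library. SLC1A3, the glial glutamate carrier, had no count in the control libraries and 3, 7, and 6 counts in the ATRA libraries. Against a floor of 3 counts over the control group this was 3.96-fold higher, a value that leaves out the counting error of the ATRA reads. SLC1A7 had 1 count in each control library and 22, 8, and 17 in the ATRA libraries. The ratio of its summed rates was 11.6 (95% interval 3.74 to 58.4, exact, counting error only). It overlaps PODN, which fell (log2FC -2.15).

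The SLC3 genes encode heavy chains, single-pass membrane glycoproteins that are linked to an SLC7 light chain by a disulfide bridge. They moved in opposite directions. SLC3A2, the heavy chain CD98 that serves several light chains, had 321, 304, and 298 CPM in the control libraries and 631, 576, and 634 CPM in the ATRA libraries. The increase was 1.995-fold (log2FC 0.996, standard error 0.0599, edgeR adjusted p = 2.31e-11), just under the fold threshold of 1 and between 0.96 and 1.03 when each library was left out in turn. SLC3A1, the heavy chain known from cystine and dibasic amino acid transport in kidney and gut, had 3.42, 3.34, and 4.36 CPM in the control libraries and 0.902, 0.476, and 0.749 CPM in the ATRA libraries. It fell 5.21-fold (log2FC -2.38, standard error 0.240, edgeR adjusted p = 4.33e-08). It overlaps PREPL in ARS1.2, which fell 1.58-fold, a smaller decrease.

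The light chains moved unequally. SLC7A5, the exchanger of leucine and other large neutral amino acids (LAT1), had 601, 542, and 598 CPM in the control libraries and 514, 526, and 518 CPM in the ATRA libraries. It was 1.12-fold lower with TMM (log2FC -0.16, standard error 0.0584, edgeR adjusted p = 0.0174) and higher with library size only. The call was lost without control replicate 1 (log2FC -0.14, adjusted p = 0.0720), without control replicate 3 (log2FC -0.15, adjusted p = 0.0720), with upper-quartile scaling (log2FC -0.08, adjusted p = 0.183), and with R's t.test function (adjusted p = 0.102). SLC7A6, a light chain that exchanges cationic for neutral amino acids, had 20.9, 23.9, and 21.4 CPM in the control libraries and 36.6, 44.2, and 40.0 CPM in the ATRA libraries. It rose 1.82-fold (log2FC 0.87, standard error 0.0848, edgeR adjusted p = 2.85e-08). SLC7A7, its relative, had 2.09, 1.39, and 1.37 CPM in the control libraries and 1.94, 2.47, and 1.23 CPM in the ATRA libraries, groups that overlapped (log2FC 0.22, edgeR adjusted p = 0.443, log2FC -0.03 without ATRA replicate 2), and it passed as higher with library size only (log2FC 0.71, adjusted p = 0.0241). The other light chains listed, SLC7A8 and SLC7A10, were not tested.

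The balance of heavy chain SLC3A2 reads to those of SLC7A5 differed between the groups, while that to SLC7A6 overlapped. SLC3A2 reads per 100 reads of SLC7A5 were 53.3, 56.2, and 49.8 in the control libraries and 122.8, 109.6, and 122.4 in the ATRA libraries, a 2.23-fold higher ratio that no scaling changes. SLC7A6 reads per 100 reads of SLC7A5 were 3.83 ± 0.516 in the control group and 7.75 ± 0.641 with ATRA (SD, n = 3). The groups did not overlap for either ratio. SLC3A2 reads per 100 reads of SLC7A6 did overlap, at 1398 ± 132 and 1537 ± 214 (SD, n = 3), and no difference in that ratio was seen beyond the spread of the libraries. The summed level of the 3 light chains tested was 567 to 624 CPM in the control libraries and 552 to 572 CPM in the ATRA libraries.

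**Figure D2:**
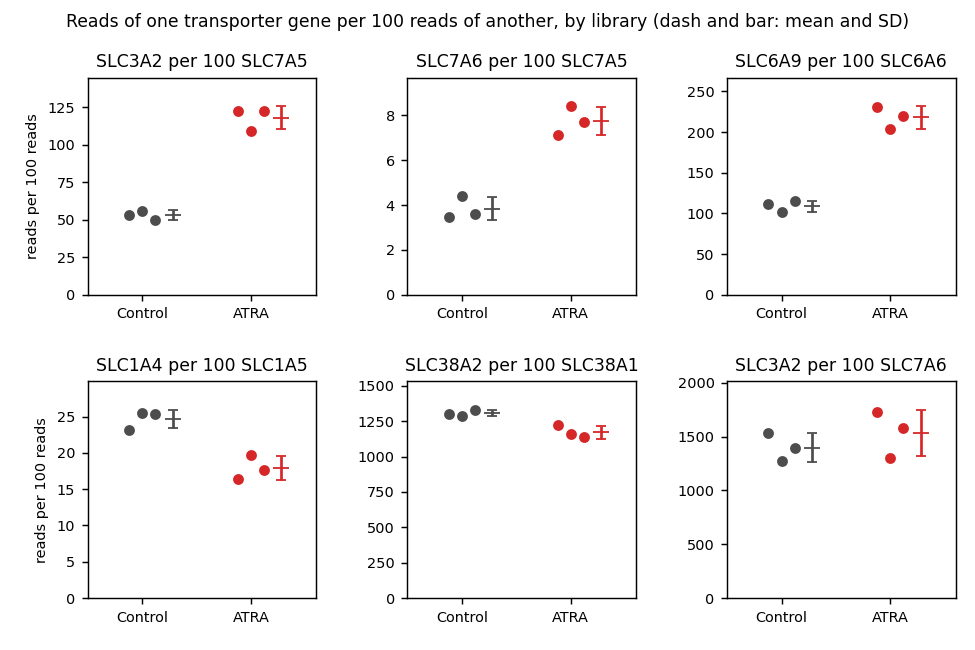
Reads of a transporter gene per 100 reads of another in each library of the control group and the ATRA-treated group, with the mean and SD of 3 libraries. SLC3A2 per 100 SLC7A5 lies at 49.8 to 56.2 in the control libraries and 109.6 to 122.8 in the ATRA libraries, while SLC3A2 per 100 SLC7A6 overlaps between the groups.

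The cationic amino acid carriers of SLC7 bring in arginine, lysine, and ornithine without a heavy chain. Of 9 members, 5 were tested, 1 rose, and 3 fell. SLC7A1, the housekeeping carrier of the group, fell 1.64-fold from 85.9 ± 3.28 to 52.2 ± 8.06 CPM (SD, n = 3; log2FC -0.72, edgeR adjusted p = 5.96e-07). Its ATRA values were 44.7, 60.8, and 51.2 CPM, the widest spread among the 20 members with a mean of at least 10 CPM in both groups (coefficient of variation 15.4%), and replicate 2 was nearest to the control group. SLC7A2, the carrier induced in activated macrophages, was 1.54-fold higher at 2.11 ± 0.299 against 1.37 ± 0.0645 CPM (SD, n = 3; log2FC 0.62, edgeR adjusted p = 0.0141), and the call was lost without ATRA replicate 2 (log2FC 0.54, adjusted p = 0.0549) and with R's t.test function (adjusted p = 0.0516).

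SLC7A3 had 4.80, 4.24, and 4.203 CPM in the control libraries and 0.694, 0.952, and 1.16 CPM in the ATRA libraries, a 4.71-fold decrease (log2FC -2.24, standard error 0.207, edgeR adjusted p = 1.29e-08). LOC102169897, annotated as a copy of SLC7A3, had 1.71, 2.04, and 1.71 CPM in the control libraries and 0.555, 0.635, and 0.846 CPM in the ATRA libraries, a 2.68-fold decrease (log2FC -1.42, standard error 0.257, edgeR adjusted p = 6.02e-05). The ATRA libraries lay below the control libraries for both. Reads could be divided between these copies, whose sequences were not compared, so the value of each is uncertain. The other 4 copies held at most 6 counts in a library. Of these, LOC102170172 had no count in the control libraries and 4, 2, and 3 counts in the ATRA libraries. Against a floor of 3 counts over the control group this was 2.23-fold higher, without the counting error of the ATRA reads. LOC108638088 had 6, 1, and 0 counts in the control libraries and 0, 0, and 1 counts in the ATRA libraries (ratio of summed rates 0.106, 95% interval 0.00235 to 0.825), and a single control library held most of its reads. SLC7A4, whose transport activity is unclear, had 0.348 ± 0.152 and 0.561 ± 0.109 CPM (SD, n = 3; log2FC 0.69, edgeR adjusted p = 0.112). It passed as higher with library size only (log2FC 1.16, edgeR adjusted p = 0.009997) and without control replicate 1 (log2FC 1.07, edgeR adjusted p = 0.0484). Without that library it passed the filter on low counts only through its ATRA libraries, as the control libraries left held 10 and 7 counts. The filter therefore favoured that call.

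The SLC6 family holds sodium- and chloride-coupled carriers of amino acids, neurotransmitters, and osmolytes. Among its carriers of amino acids, GABA, taurine, or betaine, 4 of 9 were tested, 2 rose, and 1 fell. SLC6A9, the glycine carrier GlyT1, had 142.5, 133, and 149.5 CPM in the control libraries and 290.2, 277, and 290.4 CPM in the ATRA libraries. It rose 2.02-fold (log2FC 1.013, standard error 0.0581, edgeR adjusted p = 1.13e-11), just past the fold threshold and between 0.96 and 1.05 when each library was left out in turn. SLC6A6, the taurine carrier, had 129.9 ± 1.35 and 131 ± 5.13 CPM (SD, n = 3; log2FC 0.01, edgeR adjusted p = 0.820), and was higher with library size only (log2FC 0.49). SLC6A9 reads per 100 reads of SLC6A6 were 109 ± 6.87 in the control group and 218 ± 13.7 with ATRA (SD, n = 3), and the groups did not overlap.

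SLC6A17, which loads neutral amino acids into synaptic vesicles, had 250.1, 235, and 247 CPM in the control libraries and 25.3, 25.5, and 24.4 CPM in the ATRA libraries. The decrease was 9.72-fold (log2FC -3.28, standard error 0.0613, edgeR adjusted p = 6.93e-19), and both groups were tight. SLC6A20, the carrier of proline and other imino acids, had 7, 3, and 8 counts in the control libraries and 93, 85, and 94 counts in the ATRA libraries, or 0.226, 0.0927, and 0.249 CPM and 2.15, 1.93, and 2.27 CPM. Its log2FC was 3.47 (standard error 0.332, edgeR adjusted p = 2.07e-08), with few control reads behind it. A transcribed pseudogene overlaps SLC6A20 in ARS1.2.

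Of the SLC6 carriers of monoamines or creatine, 2 of 3 rose. SLC6A2, the norepinephrine carrier, had 0.580, 0.804, and 0.778 CPM in the control libraries and 6.25, 6.67, and 6.82 CPM in the ATRA libraries, a 9.07-fold increase (log2FC 3.18, standard error 0.185, edgeR adjusted p = 1.43e-11). SLC6A8, the creatine carrier, rose 1.54-fold from 39.3 ± 2.80 to 60.5 ± 2.57 CPM (SD, n = 3; edgeR adjusted p = 2.03e-07). SLC6A4, the serotonin carrier, had 1.13, 1.33, and 0.405 CPM in the control libraries and 0.648, 0.680, and 0.749 CPM in the ATRA libraries, where control replicate 3 lay below the ATRA libraries and the others above (log2FC -0.46, edgeR adjusted p = 0.238). Without control replicate 3 it passed as lower (log2FC -0.83, adjusted p = 0.0214), and with library size only it had a log2FC of 0.02. The summed markers of neurons and glia were 11.9 to 13.7 CPM in the control libraries and 33.0 to 37.1 CPM in the ATRA libraries, led by SNAP25, with 2 of the 3 tested risen and 1 fallen, and with RBFOX3 and GFAP at 3 counts or fewer or without a row. Their part in the values of the SLC6 genes was not tested.

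**Figure D3:**
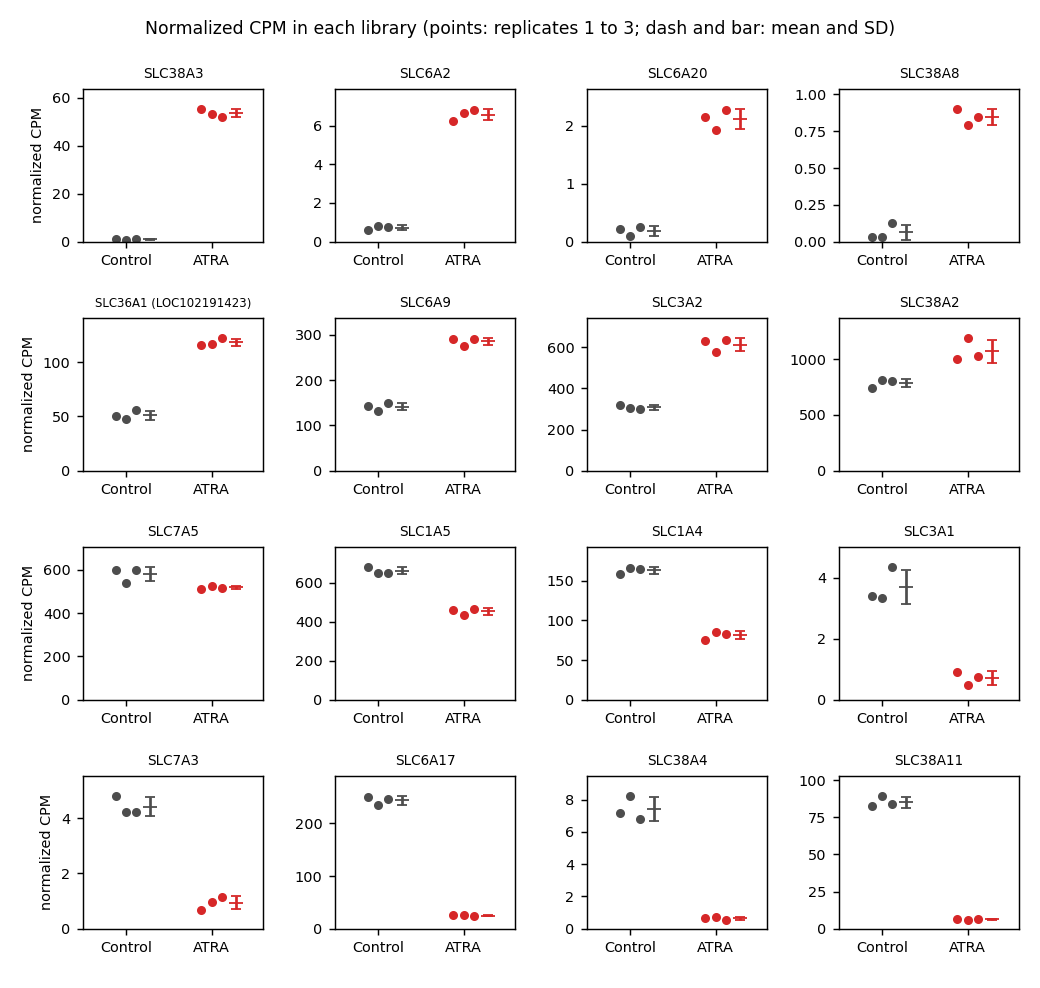
Normalized CPM in each library for 16 transporter genes, with the mean and SD of 3 libraries per group and a vertical axis that starts at 0 for each gene. The groups do not overlap in any panel. SLC38A3 goes from about 1 to 52.1 to 55.5 CPM, and SLC6A17 from 235 to 250.1 to 24.4 to 25.5 CPM. The decreases of SLC7A5 and SLC1A5 are on the TMM scale and are not kept with library size only.

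Most SLC36 carriers move small amino acids together with protons, many of them out of lysosomes. Both members tested rose. SLC36A1, listed as LOC102191423, had 50.3, 47.8, and 55.9 CPM in the control libraries and 116, 117, and 122.6 CPM in the ATRA libraries, a 2.31-fold increase (log2FC 1.21, standard error 0.0666, edgeR adjusted p = 6.40e-12). SLC36A4 rose 1.84-fold from 33.0 ± 0.716 to 60.6 ± 7.14 CPM (SD, n = 3; edgeR adjusted p = 1.05e-08), with ATRA replicate 2 highest at 68.8 CPM. The deposited annotation gives amino acid and proton symport for LOC102191423 but not for SLC36A4. Of the other 2 members, LOC102174838, annotated as SLC36A3, had 3, 0, and 1 counts in the control libraries and 0, 1, and 8 counts in the ATRA libraries (ratio of summed rates 1.67, 95% interval 0.466 to 7.42).

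The SLC43 family takes up leucine, isoleucine, and phenylalanine by facilitated diffusion, except for SLC43A3, a carrier of purine nucleobases. SLC43A1 and SLC43A3 fell on the TMM scale, from 31.5 ± 3.18 to 23.0 ± 0.886 CPM and from 176 ± 9.90 to 127 ± 3.11 CPM (SD, n = 3; log2FC -0.45 and -0.47, edgeR adjusted p = 7.66e-05 and 5.86e-07), and neither was lower with library size only. SLC43A2 was higher at 7.65 ± 1.34 against 6.001 ± 0.953 CPM, in groups that overlapped (SD, n = 3; log2FC 0.35, edgeR adjusted p = 0.0383). Its call was lost without control replicate 2 (adjusted p = 0.215), control replicate 3 (adjusted p = 0.0652), ATRA replicate 2 (adjusted p = 0.170), or ATRA replicate 3 (adjusted p = 0.0843), and with DESeq2 (adjusted p = 0.0605) or R's t.test function (adjusted p = 0.195).

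The 18 members below the filter held at most 22 counts in a library. Besides the SLC1 genes, SLC6A14, a broad carrier of neutral and cationic amino acids, had 1, 2, and 1 counts in the control libraries and 6, 11, and 8 in the ATRA libraries (ratio of summed rates 4.64, 95% interval 1.601 to 18.3). It overlaps LOC102180115, which had no count in the control libraries and 23, 39, and 24 counts in the ATRA libraries. SLC7A8, a light chain of SLC3A2, went from 4 counts over the control libraries to 24 over the ATRA libraries (ratio 4.45, 95% interval 1.53 to 17.7). SLC7A10 went from 5 to 17 counts (ratio 2.52, 95% interval 0.894 to 8.75) and SLC38A5 from 4 to 10 (ratio 1.86, 95% interval 0.535 to 8.10). The intervals of SLC7A10 and SLC38A5 include 1, so no difference was detectable at this depth, and all these intervals cover counting error only.

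The reads of the 52 genes together were 0.331% ± 0.00358 of all counts in the control group and 0.485% ± 0.0150 with ATRA (SD, n = 3). On the TMM scale their sum was 3901 ± 54.0 and 4105 ± 89.0 CPM (SD, n = 3), 1.05-fold higher in groups that did not overlap. The change of the sum thus depends on the scaling, while the share of each gene in it does not. SLC38A2 went from 20.1% ± 1.09 to 26.1% ± 1.98 of the reads of the 52 genes and SLC3A2 from 7.88% ± 0.294 to 14.95% ± 1.07 (SD, n = 3). SLC1A5 went from 17.0% ± 0.370 to 11.1% ± 0.646, SLC7A5 from 14.9% ± 0.656 to 12.6% ± 0.128, and SLC6A17 from 6.25% ± 0.126 to 0.611% ± 0.0174 (SD, n = 3). These shares do not depend on the scaling, and the groups did not overlap for any of the 5 genes. They also did not overlap for SLC6A6 (3.33% and 3.195%), whose CPM did not pass (edgeR adjusted p = 0.820). A share falls when other genes of the 52 gain reads, so a lower share does not by itself show a decrease.

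**Figure D4:**
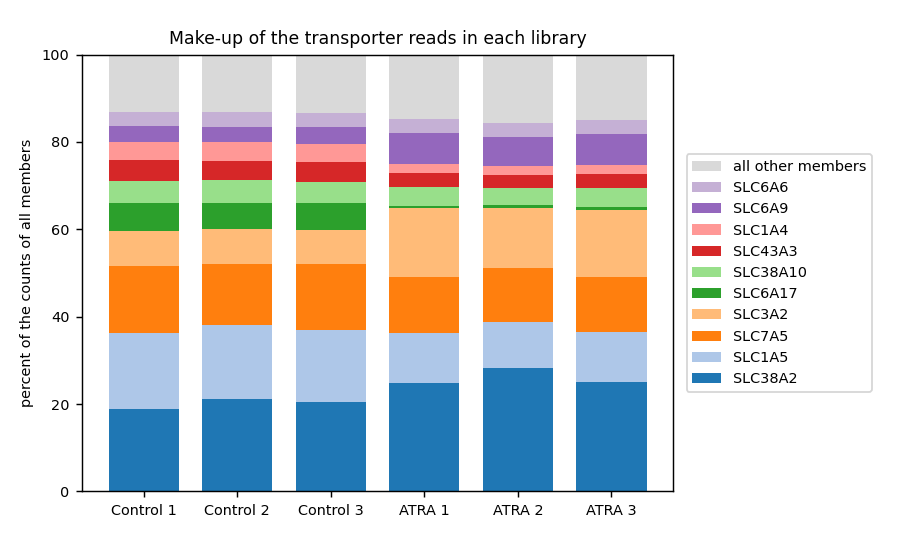
Make-up of the reads of the 52 transporter genes in each library, as the percent of their counts. The 10 genes with a mean share of at least 3% in either group are shown by name. SLC38A2 and SLC3A2 take larger shares in the ATRA libraries (26.1% and 14.95% on average) than in the control libraries (20.1% and 7.88%), and SLC6A17 a smaller one (0.611% against 6.25%).

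Over the 20 members with a mean of at least 10 CPM in both groups, the coefficient of variation had a median of 4.16% in the control group and 4.45% with ATRA. ATRA replicates 1, 2, and 3 were the highest ATRA library for 5, 15, and 14 of the 34 members tested (14.7%, 44.1%, and 41.2%), where they were so for 32.4%, 38.3%, and 29.2% of all genes. Replicate 2 was the highest for SLC38A1, SLC38A2, SLC38A9, SLC36A4, SLC7A1, and SLC7A6. Without ATRA replicate 2, 15 members rose and 14 fell.

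Other amino acid genes were taken from lists beside the transporters. Of 16 carriers outside the 7 families that were tested, 2 rose and 9 fell with TMM (median log2FC -0.41). With library size only, 7 rose and 6 fell. On the TMM scale the decreases were largest for the sideroflexins of the inner mitochondrial membrane. Of these SFXN1, a serine carrier, fell 5.47-fold from 317 ± 7.66 to 57.9 ± 1.41 CPM (SD, n = 3; edgeR adjusted p = 1.16e-17). SFXN2 and SFXN3 had a log2FC of -2.51 and -2.32. SLC25A38, the mitochondrial glycine carrier, rose 1.75-fold (log2FC 0.80, edgeR adjusted p = 5.13e-08). SLC25A44, the mitochondrial carrier of branched-chain amino acids, had a log2FC of 0.19 (edgeR adjusted p = 0.0296), a call lost without control replicate 1, control replicate 2, or ATRA replicate 3 (adjusted p = 0.109, 0.130, and 0.0959) and with DESeq2 or R's t.test function (adjusted p = 0.0578 and 0.108).

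Of 27 enzymes of amino acid synthesis and breakdown tested, 7 rose and 19 fell with TMM (median log2FC -0.68), and 9 and 15 with library size only. PHGDH and PSAT1, which make serine, fell 3.91-fold and 3.32-fold (log2FC -1.97 and -1.73, edgeR adjusted p = 9.24e-15 and 2.97e-15), and CBS, which makes cystathionine from serine and homocysteine, had a log2FC of -1.45. SHMT1, which interconverts serine and glycine, rose 2.79-fold (edgeR adjusted p = 9.23e-12). ARG2, the mitochondrial arginase, had the largest increase of the list (log2FC 4.08, standard error 0.387), from 0.104 ± 0.0460 CPM in the control group (SD, n = 3). ARG2 and ASS1, with at most 5 and 4 counts in a control library, passed the filter only through their ATRA libraries and so had to differ.

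Of 26 genes of amino acid sensing at the lysosome, 11 rose and 10 fell with TMM, and 19 rose and 4 fell with library size only. With TMM their median log2FC was 0.06, near 0. It was -0.01 without ATRA replicate 2, 0.02 without control replicate 1, 0.10 without control replicate 2, and 0.09 without ATRA replicate 3. SESN3 and SESN1, of the leucine-sensing sestrin family, and TSC2, an inhibitor upstream of mTORC1, had a log2FC of 1.08, 1.00, and 0.78, and LAMTOR4, MLST8, and LAMTOR1, parts of the mTORC1 machinery, -1.62, -1.17, and -0.64. Of 15 genes of the response to amino acid deprivation, 8 rose and 4 fell with TMM (median log2FC 0.37), and 12 and 1 with library size only. DDIT4, an inhibitor of mTORC1, rose 10.6-fold from 43.5 ± 2.50 to 462 ± 35.1 CPM (SD, n = 3; edgeR adjusted p = 3.15e-18), and PPP1R15A and TRIB3 rose 3.64-fold and 3.50-fold. JDP2, NUPR1, and ATF5 had a log2FC of -2.45, -0.60, and -0.49, of which NUPR1 and ATF5 did not pass with library size only (log2FC -0.12 and -0.01). The TMM counts of the 4 lists are descriptions beside the 40.9% and 38.7% of all genes, and no list was tested as a set. With library size only, the medians of the 4 lists were 0.07, -0.20, 0.54, and 0.85, beside 0.52 for all genes, so that of the other carriers changes sign.

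**Figure D5:**
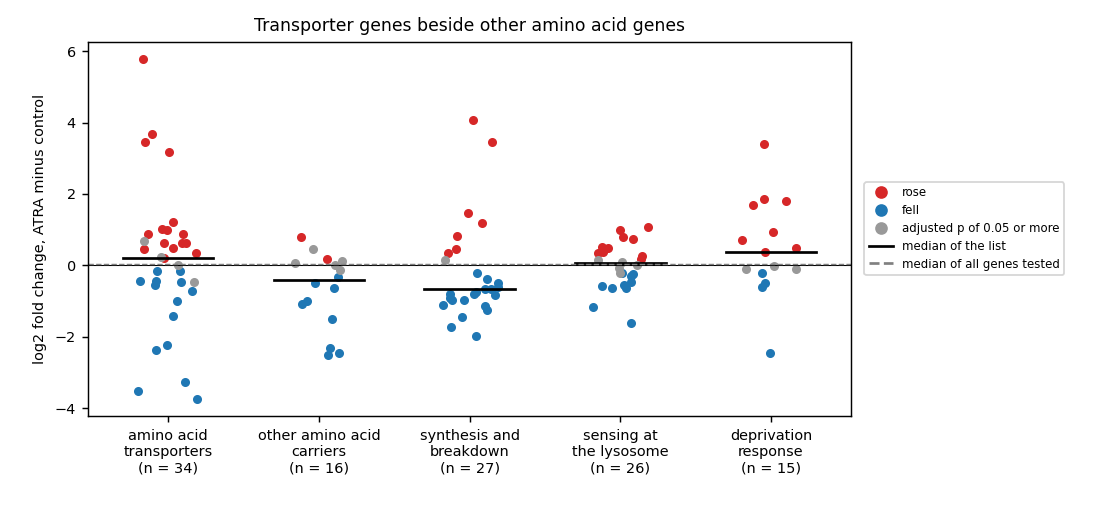
The log2 fold change (ATRA minus control) of every tested gene of 5 groups, with the 34 transporter genes first. Red points rose, blue points fell, and grey points did not pass, all on the TMM scale, where 5 of the blue transporter points change sign with library size only. Black lines are the medians (0.22, -0.41, -0.68, 0.06, and 0.37 from left to right), and the dashed line is the median of all genes tested (0.04).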

How the data were processed

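The authors prepared poly(A) RNA libraries, cleaned the reads with fastp and TrimGalore (v0.6.6), and deposited raw read counts per gene, not normalized, for 6 libraries in 1 table. The submitters' processing notes also name HISAT2, featureCounts, and DESeq2 without versions. The genome build, the annotation, and the strand setting are not given in the sources used here. Symbols and overlapping or neighbouring genes were read from a RefSeq gene table (ARS1.2), in which all 52 members were found. Its positions were used only to find those genes, and no sequence or coordinate is given.

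From the deposited counts, genes were kept by filterByExpr (minimum count 10), scaled by TMM, and tested with edgeR 4.0.16 (quasi-likelihood, robust, two-sided, group as the only term) on all 6 libraries, with Benjamini-Hochberg adjustment over 12588 genes. A count model was used in place of the t.test function of R named in the study's methods. The prior count for log2FC was 0.125, and standard errors were the size of log2FC over the square root of F. Normalized CPM uses the total over tested genes times the TMM factor. Intervals are exact at 95%.

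All tested members are named, and those with at most 3 counts in every library are only counted. Values per library are given for members past both thresholds with a mean of at least 1 CPM in a group, for the 6 members with the highest mean CPM, and for the SLC3 genes and their light chains. SLC38A8, SLC6A4, and single values of other members were added after their values were seen. From the other lists, up to 3 genes in each direction are named. The members and lists were chosen with earlier results of these data known. Another SLC7 gene and some genes of the lists are not reported here.

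Alternatives tried were DESeq2 1.42.0, t.test on log2(CPM + 1), scaling by RLE, upper quartile and library size only, other filters and thresholds, a prior count of 2, a replicate block, and leaving out 1 library at a time. The tools were also run on simulated data in which 200 of 12588 genes were changed. There edgeR recovered 194 with 11 false calls, DESeq2 190 with 17, and t.test 76 with 1. In the deposited libraries 40.9% of all genes tested rose and 38.7% fell. How the tools perform with so large a share of genes called was not tested. Software also included R 4.3.3, Python 3.11.15, and matplotlib 3.10.9.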

Additional observations from a re-analysis of the deposited data

How the results depend on the processing

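Over the alternatives, 470 of 507 comparisons of a member's log2FC with its reported value kept their direction and their side of the threshold, 21 no longer passed, 5 newly passed, and 5 values of called members changed sign, all 5 with library size only. A further 6 values of SLC6A4, SLC6A6, and SLC7A7, which did not pass in either fit, changed sign, and they lay between -0.0299 and 0.016. That scaling gave a log2FC of 0.0536 for SLC38A6, 0.31 for SLC38A10, 0.0258 for SLC43A1, 0.008 for SLC43A3, and 0.32 for SLC7A5, since it moves every gene by about the same amount. With it, 8 members fell in place of 14, and 13 were higher past the study's thresholds in place of 6. Without the filter on low counts, 12 were higher past those thresholds, since more genes were tested. Over all alternatives, 13 to 21 members rose and 8 to 14 fell. When each library was left out in turn, 14 to 18 rose, 13 to 14 fell, 5 to 9 were higher past the study's thresholds, and 6 to 7 were lower.

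Libraries with the same replicate number did not deviate together (correlations of 0.189, -0.007, and -0.159 for numbers 1, 2, and 3), so the numbers share only a name here. With the replicate block, 15 members rose and 14 fell, 6 were higher and 7 lower past the study's thresholds, and 33 of 34 members kept their call. The exception was SLC43A2 (log2FC 0.35, adjusted p = 0.0714 with the replicate block).

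The median log2FC of the members was 0.12 to 0.41 with a library left out, 0.70 with library size only, and 0.46 without the filter. On log2(CPM + 1) scarcely read genes have smaller values by construction, such as 0.80 for SLC38A8 and 1.39 for SLC6A20. Members at the fold threshold, namely SLC1A4, SLC3A2, and SLC6A9, move across it with small changes of the setting. For the members below the filter, depth limits what can be seen.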

Other observations

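The deposited annotation groups the members by pathway. Of the 3 members annotated to the mTOR signaling pathway, SLC38A9 and SLC3A2 rose and SLC7A5 fell on the TMM scale, while it was higher with library size only. Of 7 members annotated to the glutamatergic synapse, SLC38A1, SLC38A2, and SLC38A3 were tested and rose, and the acidic amino acid carriers among them were below the filter. Of 8 members annotated to arginine transport across membranes, 4 were tested, SLC7A2 rose, and SLC7A1, SLC7A3, and LOC102169897 fell. Of 10 members annotated to protein digestion and absorption, 7 were tested, 4 rose, and 2 fell, and these include the heavy chains SLC3A1 and SLC3A2, which moved in opposite directions. These groups are examples from a longer list of annotations, share members with each other, and were not tested as sets. Their counts stand beside the 40.9% of all genes that rose and the 38.7% that fell, and few members were tested in each.

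Some further ratios of reads, which no scaling changes, were seen beside those of the report. SLC38A3 reads per 100 reads of SLC38A2 were 0.143, 0.0995, and 0.128 in the control libraries and 5.56, 4.49, and 5.06 in the ATRA libraries. SLC38A2 reads per 100 reads of SLC38A1 were 1302, 1290, and 1332 in the control libraries and 1224, 1156, and 1135 in the ATRA libraries, a small difference in groups that did not overlap. Reads of SLC36A1 (LOC102191423) per 100 reads of SLC36A4 were 149, 148, and 169 in the control libraries and 204, 169.7, and 218 in the ATRA libraries, where the highest control library lay just below the lowest ATRA library. SLC7A6OS, the gene next to SLC7A6 whose name derives from its opposite strand, had a log2FC of 0.06 (edgeR adjusted p = 0.486), beside 0.87 for SLC7A6.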
